A study of Mus musculus with 55 samples.

Results

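The histone cluster genes are the mouse genes of the histone clusters Hist1, Hist2, Hist3 and Hist4, which encode the linker histone H1 and the core histones H2A, H2B, H3 and H4. They were taken as every row of the count table whose symbol begins with Hist, a cluster number from 1 to 4 and the letter h, after 1 symbol marked as a pseudogene was left out, which gave 69 of 55421 genes. Among them were 6 H1, 20 H2A, 18 H2B, 12 H3 and 13 H4 genes. By their mm10 positions, 56 lay on chromosome 13, 10 on chromosome 3, 2 on chromosome 11 and 1 on chromosome 6.

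RNA was sequenced from hematopoietic stem and progenitor cells sorted from the bone marrow of WT and Tet2-/- mice on the C57BL/6 background. The Tet2-/- mice carried Tet2 f/f and Mx1-Cre, a Cre driven by an interferon-inducible promoter that is active in many cell types and not only in blood. Cre was induced at 4 weeks of age with 5 doses of poly(I:C), and the cells were collected 16 weeks after induction. The sources used here do not say whether the WT mice carried Mx1-Cre or a floxed allele, or whether they received poly(I:C). The 6 populations were long-term hematopoietic stem cells (LT-HSC, Lin-cKit+Sca1+CD48-CD150+), short-term hematopoietic stem cells (ST-HSC, the same gate but CD150-), common myeloid progenitors (CMP), granulocyte-macrophage progenitors (GMP), megakaryocyte-erythroid progenitors (MEP) and common lymphoid progenitors (CLP). Each of the 12 groups held 4 libraries of about 200 sorted cells by the labels (the study's methods give a larger number of cells), apart from 3 in WT LT-HSC and 3 in WT ST-HSC, which makes 46 libraries. The comparisons ask how the histone genes differ between genotypes within each population and between populations within each genotype.

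Dividing cells make most of their histone protein in S phase, when new DNA has to be packed into nucleosomes, and the genes of these clusters supply it. Their mRNAs usually end in a conserved stem-loop, bound by the stem-loop binding protein Slbp, in place of a poly(A) tail, and the upstream region of many of them is shared by an H2A and an H2B gene transcribed in opposite directions. Libraries primed on poly(A), such as the SMART-Seq2 type used here, recover only the fraction of these transcripts that carries a tail, so the levels below are levels of recovered transcript and not of all histone mRNA.

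The stem-loop motif, searched as GG, 2 free bases, CTTTT, 1 free base, AG, 2 free bases and CC on the transcript's own strand, was found in the annotated transcripts of 44 of the 69 members, against 78 of 21951 protein-coding genes (0.3553%). It was annotated in 4 of 6 H1, 11 of 20 H2A, 10 of 18 H2B, 8 of 12 H3 and 11 of 13 H4 genes. The motif could be found only where the annotated transcript reaches it. Members without it include short models such as Hist1h2ak (393 nt), Hist1h2bn (381 nt) and Hist1h4k (312 nt). These counts therefore describe the annotation and not which genes have a stem-loop. The sequences of 7 members described below are shown 5′ to 3′ with the motif in capitals, from the mm10 genome and the GENCODE vM21 transcripts, because this ending sets these mRNAs apart from polyadenylated ones.
Hist1h1c (H1): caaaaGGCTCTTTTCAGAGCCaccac
Hist1h2ap (H2A): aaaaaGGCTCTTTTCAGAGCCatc
Hist1h2ag (H2A): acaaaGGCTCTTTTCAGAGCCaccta
Hist3h2a (H2A): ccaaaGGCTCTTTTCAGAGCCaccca
Hist1h2bj (H2B): ccaaaGGCTCTTTTCAGAGCCacgca
Hist1h3e (H3): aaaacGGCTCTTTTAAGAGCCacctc
Hist1h4d (H4): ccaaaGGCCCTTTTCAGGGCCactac
The 7 endings differed in what the annotation places behind the stem-loop. Hist1h2ap was annotated for 3 nt past it, and Hist1h2ag and Hist1h2bj for 23 nt each. Hist1h3e continued for 369 nt, Hist1h4d for 770 nt, Hist1h1c for 840 nt and Hist3h2a for 1643 nt. An annotated transcript continued by more than 100 nt in 4 H1, 3 H2A, 4 H2B, 5 H3 and 6 H4 genes.

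The region upstream of 62 members was matched in the RefSeq table of the build GRCm38.p6, as windows from 250 bases before to 50 bases after the start of the gene. CCAAT, read on either strand (reverse complement ATTGG), was in the windows of all matched H1, H2A, H2B and H3 genes (6, 18, 16 and 10) and in 3 of 12 H4 windows, against 37.92% of 27025 windows of the table. The octamer ATTTGCAT (reverse complement ATGCAAAT) was in 7 of 18 H2A and 6 of 16 H2B windows and in no H1, H3 or H4 window, against 1.754% of the table. AAACACA (reverse complement TGTGTTT) was in 5 of 6 H1 windows, against 7.138% of the table. TATAAA (reverse complement TTTATA, which overlaps it) was in 40% to 66.67% of the windows of each class, against 14.16%. The 250 upstream bases of 2 members that differed in opposite directions in the CMP are shown, with CCAAT and TATAAA on either strand in capitals. The first, chr13:22042950-22043199 on the minus strand, holds most of the 270 bases between the starts of Hist1h2ag and Hist1h2bj and so lies before both. The second is chr13:23581318-23581567 on the plus strand.
Hist1h2ag upstream: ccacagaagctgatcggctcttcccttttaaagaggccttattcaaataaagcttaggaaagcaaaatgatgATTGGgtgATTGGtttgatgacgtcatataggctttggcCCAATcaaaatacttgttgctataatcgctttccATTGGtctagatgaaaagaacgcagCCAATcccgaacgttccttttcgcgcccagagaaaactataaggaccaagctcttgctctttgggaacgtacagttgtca
Hist1h4d upstream: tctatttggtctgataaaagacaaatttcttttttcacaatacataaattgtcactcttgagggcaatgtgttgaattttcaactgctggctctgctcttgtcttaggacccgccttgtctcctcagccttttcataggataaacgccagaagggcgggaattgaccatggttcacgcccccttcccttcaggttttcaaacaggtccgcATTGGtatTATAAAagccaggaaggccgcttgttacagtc
These matches describe letters in a window and not bound sites.

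The libraries held 50458473 to 102148079 counted reads and 13754 to 20964 detected genes, with at most 16903 genes in any CLP library and at least 17586 in every other. Of the 69 members, 50 to 68 had a read in a given library, and the members together took 0.0222% to 0.2219% of the reads. The gene-level count of Tet2 overlapped between the genotypes in all 6 populations: it was 17.4 to 23.5 CPM (counts scaled to a fixed library size) in WT CMP against 6.05 to 25.8 CPM, and 33.0 to 41.2 CPM in WT GMP against 39.5 to 60.1 CPM. Counts were deposited per gene, so reads from the deleted part of Tet2 could not be told from the rest and this count does not check the labels. The labelled cell types were checked with summed marker levels. The GMP list (6 genes) reached 32282 to 45493 CPM in the GMP libraries, and the MEP list (7 genes) 13056 to 18981 CPM in the MEP libraries. In the CLP, the CLP list (6 genes) summed to 145760 to 278560 CPM in WT but to 2258 to 131610 CPM in Tet2-/-, and the GMP list ranged from 4.94 to 3178 CPM in WT CLP and from 2.79 to 12505 CPM in Tet2-/- CLP, so the CLP libraries differed widely in these markers. In these bulk samples, fewer cells of a type and less RNA per cell cannot be told apart.

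Values are given as CPM scaled by TMM, unless another unit is named. Averaged over the 46 libraries, the members of highest level were the H2A genes Hist1h2ap (88.5 CPM) and Hist1h2ao (64.9 CPM), the H2B gene Hist1h2bc (60.9 CPM), Hist3h2a (59.1 CPM), the linker histone gene Hist1h1c (52.4 CPM) and the H4 genes Hist1h4d (44.7 CPM) and Hist1h4i (41.3 CPM). Per kilobase of annotated exon, Hist1h2ap was at 184 CPM, Hist1h4i at 56.9 CPM, Hist1h2bc at 52.7 CPM and Hist3h2a at 27.5 CPM. The H3 genes were the lowest class: their highest member by CPM, Hist1h3e, was at 3.97 CPM, or 4.75 CPM per kilobase, and their highest per kilobase, Hist1h3a, at 6.01 CPM per kilobase. Hist1h2ap shares 93.07% of its 50-base stretches with other annotated genes, and the median share was 73.24% in H2A, 61.98% in H3, 47.51% in H2B, 39.47% in H4 and 1.125% in H1, so reads can be split between near-identical genes. The class sums, given beside single genes, do not remove this for members that share most with a gene outside the set, such as Hist3h2a with Trim17 and Hist2h3c2 with Gm20634.

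**Figure D1:**
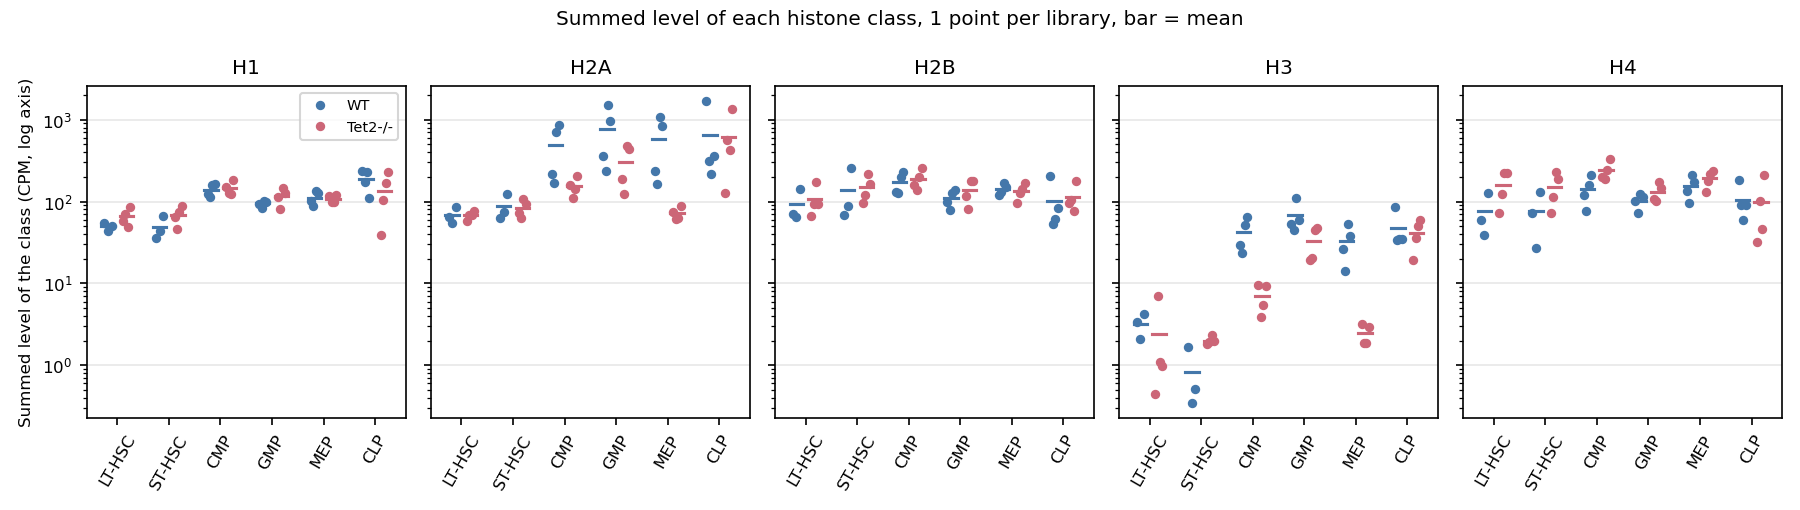
Summed level of each histone class in every library, as CPM on a log axis, for WT (blue) and Tet2-/- (red) in the 6 populations, with 1 point per library and bars at the group means. H3 sums lie at 0.349 to 7.08 CPM in LT-HSC and ST-HSC and at 14.0 CPM or above in every WT library of the other populations, and H2A sums of WT MEP lie above all Tet2-/- MEP sums.

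**Figure D2:**
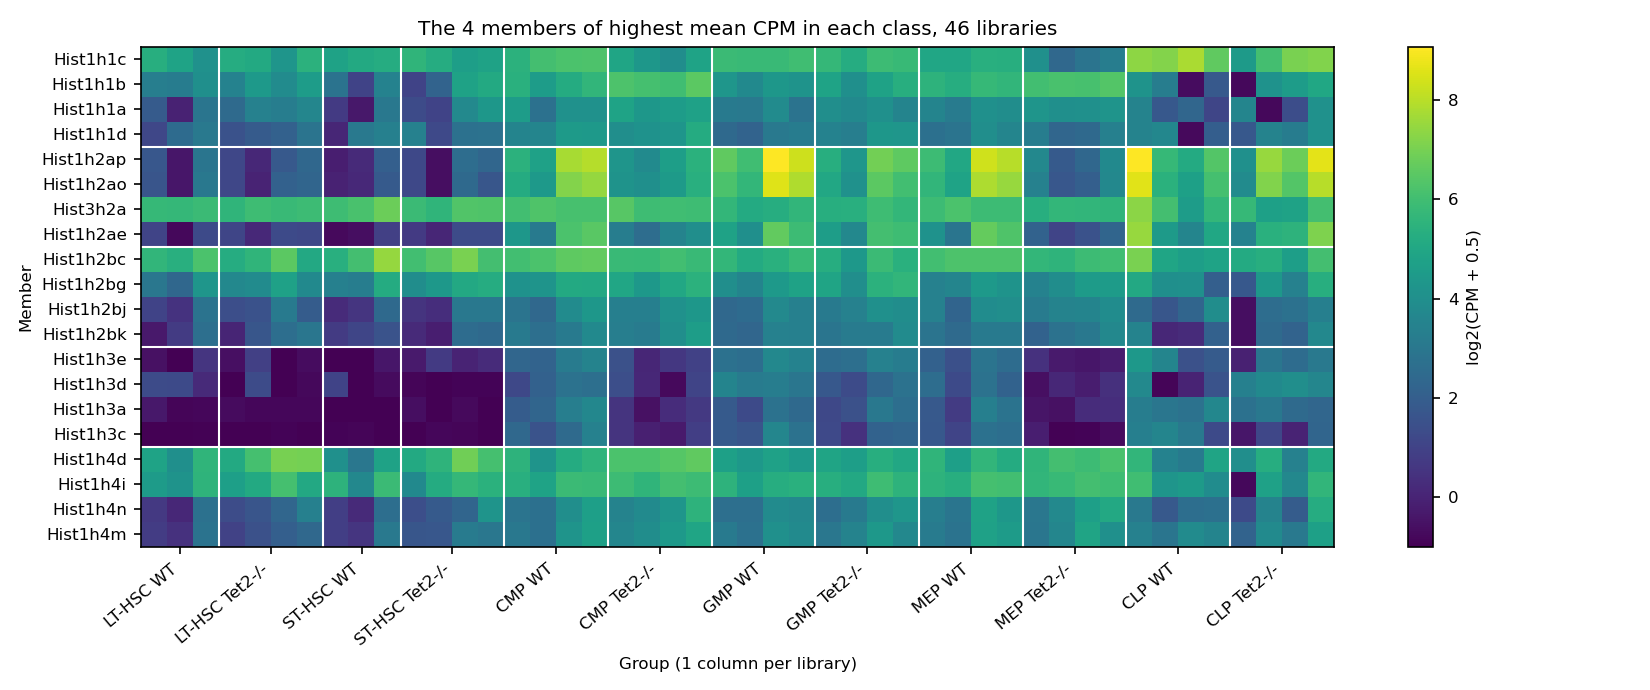
Level of the 4 members of highest mean in each class in all 46 libraries, as log2(CPM + 0.5), 1 column per library and replicates in number order within a group. Hist1h2ap, Hist1h2ao and Hist1h2ae are low in both stem cell populations, bright in WT replicates 4 and 5 of CMP, GMP and MEP, and low again in Tet2-/- MEP, while Hist3h2a lies between 23.2 and 158 CPM in all libraries.

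In MEP, most of the tested H2A and H3 genes fell from WT to Tet2-/- cells, while no H2B or H4 gene was called. A member was called when the edgeR adjusted p was at most 0.05 and the difference at least 2-fold. Of the 62 members tested, 21 fell and 0 rose, where 4.21% of all 14934 genes tested fell and 0.147% rose. The 21 were 11 of 18 tested H2A genes, 9 of 10 H3 genes and 1 of 5 H1 genes, with 0 of 16 H2B and 0 of 13 H4 genes. The median log2 fold change was -4.12 in H2A and -3.41 in H3, with no tested H2A or H3 gene above 0, against 0.17 in H2B, 0.45 in H4 and 0.05 over all genes. Without the filter on low counts, over all 20 H2A and all 12 H3 genes, the medians were -4.12 and -3.72. Over 24 members the WT libraries all lay above the Tet2-/- libraries, an ordering held by 8.59% of all genes.

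The H2A genes encode the core histone that pairs with H2B in the nucleosome. Summed over the class, H2A was at 239, 166, 1065 and 842 CPM in WT MEP replicates 2, 3, 4 and 5 and at 75.4, 60.8, 62.3 and 88.7 CPM in Tet2-/- MEP replicates 2 to 5. All WT sums were above all Tet2-/- sums, the ratio of the means was 8.05-fold, and WT replicates 4 and 5 were several times higher than 2 and 3. Hist1h2ap (chr13:21833026-21833507, minus strand) was at 58.6, 32.2, 327 and 256 CPM in WT and at 12.4, 3.07, 4.62 and 13.2 CPM in Tet2-/-, and it fell by 4.33 on the log2 scale (SE 0.84, edgeR adjusted p = 0.0152). Hist1h2ag (chr13:22042460-22042944, minus strand) was at 10.9, 4.35, 81.0 and 64.6 CPM in WT and at 0.799, 0.152, 0.257 and 1.03 CPM in Tet2-/-, and it fell by 6.13 (SE 1.09, edgeR adjusted p = 0.00973). Neither gene had overlapping groups. Hist1h2ao was at 48.5, 27.9, 228 and 181 CPM against 10.2, 2.86, 3.66 and 12.3 CPM (log2 fold change -4.05). Hist1h2ae was at 17.0, 7.08, 103 and 78.5 CPM against 3.95, 1.58, 2.43 and 4.35 CPM (-4.05). Both show the same high WT replicates 4 and 5 and 4 Tet2-/- libraries below every WT library. The other called H2A genes were Hist1h2ab (log2 fold change -4.17), Hist1h2ad (-4.31), Hist1h2ah (-4.82), Hist1h2ai (-4.32), Hist1h2aj (-5.70), Hist1h2an (-5.53) and Hist2h2ab (-4.06), the last with only 12 reads in the 4 Tet2-/- libraries together. Hist3h2a (chr11:58954685-58956830, plus strand), whose exons overlap Trim17 on the same strand, was at 58.6, 73.7, 58.8 and 59.7 CPM in WT and at 39.7, 50.9, 48.8 and 47.6 CPM in Tet2-/-, a log2 fold change of -0.43 that was not called (edgeR adjusted p = 0.116).

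The H3 genes encode the partner of H4. Their summed level was 26.3, 14.0, 52.6 and 38.3 CPM in WT MEP and 3.21, 1.89, 1.86 and 2.96 CPM in Tet2-/- MEP, a ratio of means of 13.2-fold with no overlap. Hist1h3e (chr13:23561534-23562369, minus strand) was at 3.90, 2.24, 6.84 and 5.39 CPM in WT and at 0.860, 0.335, 0.272 and 0.352 CPM in Tet2-/-, and it fell by 3.33 (SE 0.56, edgeR adjusted p = 0.00727). Hist1h3a (chr13:23761853-23762386, minus strand) was at 3.04, 1.17, 9.81 and 6.54 CPM against 0.236, 0.183, 0.710 and 0.755 CPM (-3.44). In both genes the highest Tet2-/- library stayed below the lowest WT library. Hist1h3b (-3.38), Hist1h3c (-4.83), Hist1h3d (-3.17), Hist1h3f (-2.74), Hist1h3g (-5.46) and Hist1h3i (-5.01) were called as well. Hist2h3c2 (chr3:96238108-96239127, minus strand) was at 0.800, 0.503, 1.89 and 1.97 CPM in WT and had 3 reads in Tet2-/- replicate 5 and none in the other 3 Tet2-/- libraries.

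Among the H1 genes, Hist1h1c (chr13:23738808-23740367, plus strand) was at 30.4, 30.7, 39.98 and 39.8 CPM in WT MEP and at 16.2, 4.78, 6.87 and 9.07 CPM in Tet2-/- MEP, without overlap, and it fell by 1.93 (SE 0.36, edgeR adjusted p = 0.0119). Hist1h1b lay the other way, at 37.7 to 53.9 CPM in WT and 65.2 to 82.6 CPM in Tet2-/-, a log2 fold change of 0.64 that had an edgeR adjusted p of 0.0331 but was under 2-fold. The H1 sum therefore overlapped, with means of 112 and 109 CPM. Hist1h1a (0.42) and Hist1h1d (-0.47) were not called. The H2B sum was at 122 to 168 CPM in WT MEP and at 96.2 to 166 CPM in Tet2-/- MEP, and the H4 sum at 95.7 to 214 CPM and at 133 to 238 CPM. The H3 sum divided by the H4 sum was 0.146 to 0.246 in WT MEP and 0.00845 to 0.0242 in Tet2-/- MEP, and H2A divided by H2B was 1.28 to 6.34 and 0.433 to 0.784, so neither ratio overlapped between genotypes.

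In CMP most of the tested H3 genes and a minority of the tested H2A genes fell in Tet2-/- cells. Of 64 members tested, 12 fell, where 3.92% of all genes tested fell, and 1 rose, where 0.654% of all genes rose. The 12 were 7 of 11 H3 genes, 4 of 18 H2A genes and 1 of 5 H1 genes. The median log2 fold change was -2.67 in H3 and -2.43 in H2A, with no tested member of either class above 0, against 0.71 in H2B, 0.87 in H4 and 0.03 over all genes. Over 12 members all WT libraries lay above all Tet2-/- libraries, an ordering held by 9.24% of all genes.

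The H3 sum in CMP was 29.8, 23.5, 51.4 and 64.9 CPM in WT and 9.58, 3.91, 5.50 and 9.30 CPM in Tet2-/-, a ratio of means of 5.996-fold without overlap. The H3 sum divided by the H4 sum was 0.247 to 0.320 in WT CMP and 0.0205 to 0.0483 in Tet2-/- CMP, and H2A divided by H2B was 1.34 to 3.83 and 0.715 to 0.983, so neither ratio overlapped. Hist1h3e was at 4.52, 4.14, 8.57 and 10.7 CPM in WT and at 2.30, 0.565, 1.04 and 1.403 CPM in Tet2-/-, and it fell by 2.41 (SE 0.52, edgeR adjusted p = 0.0240). Hist1h3a was at 3.32, 4.42, 9.40 and 12.1 CPM against 0.943, 0.184, 0.713 and 1.11 CPM (-3.32). The groups of both genes stayed apart. Hist1h3c (-2.91), Hist1h3f (-1.84), Hist1h3g (-2.74), Hist1h3i (-2.80) and Hist2h3c2 (-4.27) were the other called H3 genes. The H2A sum was 214, 169, 700 and 867 CPM in WT and 158, 111, 141 and 208 CPM in Tet2-/-, so the class overlapped through WT replicate 3. The called H2A genes were Hist1h2ad (-2.50), Hist1h2ag (-3.79), Hist1h2ah (-2.79) and Hist2h2ab (-4.38, 13 reads in the 4 Tet2-/- libraries). Hist1h2ap, at 44.4, 26.9, 214 and 245 CPM in WT and at 18.6, 13.4, 24.2 and 42.9 CPM in Tet2-/-, had a log2 fold change of -2.43 and was not called (edgeR adjusted p = 0.0783).

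Hist1h1c was at 43.5, 66.8, 74.7 and 76.2 CPM in WT CMP and at 30.1, 19.8, 15.0 and 28.1 CPM in Tet2-/- CMP, and it fell by 1.51 (SE 0.26, edgeR adjusted p = 0.00840). The member that rose was the H4 gene Hist1h4d (chr13:23581598-23582735, plus strand). It was at 45.3, 18.1, 36.5 and 46.2 CPM in WT and at 73.6, 74.9, 83.8 and 96.9 CPM in Tet2-/-, and it rose by 1.16 on the log2 scale (SE 0.27, edgeR adjusted p = 0.0324). All 4 Tet2-/- libraries were above all WT libraries. All 13 H4 genes had a log2 fold change above 0 and so had 16 of 17 tested H2B genes, but the H4 sums overlapped (77.3 to 210.4 CPM in WT and 191 to 328 CPM in Tet2-/-), and no H2B gene was called. Hist1h1b was at 22.9 to 49.0 CPM in WT and 63.2 to 91.9 CPM in Tet2-/-, a log2 fold change of 0.98, just under 2-fold (edgeR adjusted p = 0.0343).

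In GMP, 63 members were tested, 1 fell and 0 rose, where 4.07% of all genes tested fell and 0.308% rose. The member that fell was Hist2h3c2, at 8.35, 8.66, 19.3 and 13.1 CPM in WT and at 0.434, 0.704, 1.24 and 2.00 CPM in Tet2-/-, which fell by 3.55 (SE 0.50, edgeR adjusted p = 0.000991). Its groups were far apart, and those of Hist1h3d did not overlap either (log2 fold change -1.23, edgeR adjusted p = 0.0632), while the other tested H3 genes overlapped: Hist1h3e was at 5.72 to 12.3 CPM in WT and 5.36 to 10.2 CPM in Tet2-/-, and Hist1h3a at 1.93 to 6.35 CPM and 1.75 to 7.59 CPM. The median log2 fold change was -0.96 in H2A, with 5 of 19 members above 0, and -0.86 in H3, with 2 of 11 above 0, against 0.40 in H2B, 0.37 in H4 and 0.62 in H1. The groups did not overlap, with WT above, in 3 members, an ordering held by 8.1% of all genes. The H2A sum was 363, 234, 1509 and 970 CPM in WT GMP and 189, 123, 479 and 438 CPM in Tet2-/- GMP, so replicates of both genotypes spread widely and overlapped. In both genotypes replicates 4 and 5 lay above replicates 2 and 3. The ratios of classes did not overlap in GMP: H2A divided by H2B was 2.98 to 11.8 in WT and 1.52 to 2.70 in Tet2-/-, and H3 divided by H4 was 0.525 to 0.904 and 0.180 to 0.327. With WT replicates 2 and 3 alone as the WT group, a setting chosen after the values were seen, the medians were 0.14 in H2A and -0.02 in H3. In that setting 2 members were called lower and 2 higher, where 3.79% of all genes were called lower.

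No member was called in LT-HSC, ST-HSC or CLP, where edgeR called 0.0245%, 0.0185% and 0.00766% of all genes either way. Of the 52, 49 and 59 members tested, 2, 1 and 0 had an unadjusted p of at most 0.05 and a 2-fold difference in edgeR, all of them higher in Tet2-/-, against 3.35%, 3.65% and 2.98% of all genes. DESeq2 called 1 member in each of the 3 populations, all higher in Tet2-/- and named here after their values were seen: Hist4h4 in LT-HSC, Hist1h4d in ST-HSC and Hist3h2ba in CLP, where it called 1.47%, 1.98% and 2.8% of all genes. Of the tested members 37, 44 and 35 had an edgeR log2 fold change above 0, with medians of 0.40, 0.90 and 0.10, against 0.06, 0.04 and 0.07 over all genes. Directions in LT-HSC and CLP turned with single libraries: the H2A median in LT-HSC was at its lowest -0.74 without Tet2-/- replicate 5 and at its highest 1.14 without WT replicate 5, and in CLP -0.71 without Tet2-/- replicate 5 and 1.38 without WT replicate 2. With a replicate block the ST-HSC medians of H2A and H2B turned from 0.83 to -0.11 and from 0.54 to -0.02. Little H3 transcript was recovered from the stem cells: the H3 sum was 2.08 to 4.20 CPM in WT LT-HSC, 0.442 to 7.08 CPM in Tet2-/- LT-HSC, 0.349 to 1.65 CPM in WT ST-HSC and 1.79 to 2.34 CPM in Tet2-/- ST-HSC. The ST-HSC sums did not overlap, yet only 2 H3 genes there passed the filter on low counts. In CLP the H2A sum lay at 220 to 1688 CPM in the WT and at 127 to 1354 CPM in the Tet2-/- libraries, and no difference of the size seen in MEP stood out from that spread.

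**Figure D3:**
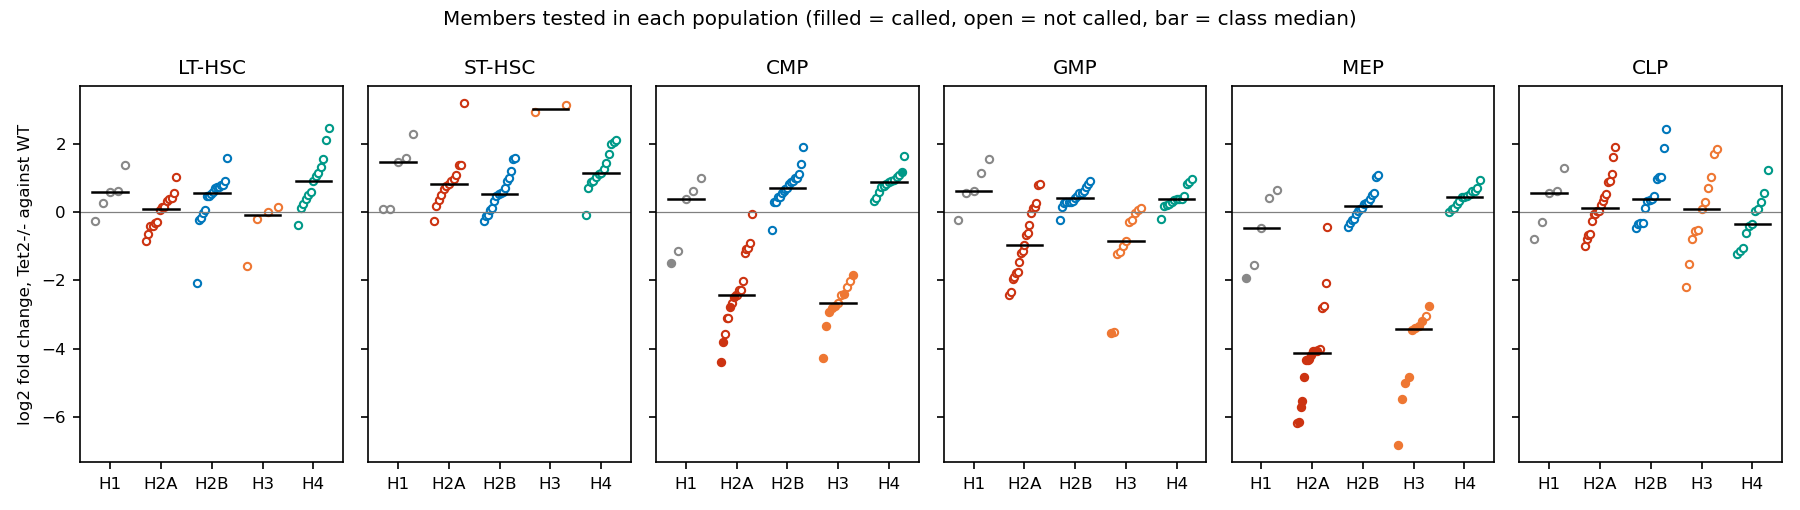
Log2 fold change of Tet2-/- against WT for every member tested, by population and histone class, with filled points for called members, open points for the others and bars at the class medians. The H2A and H3 medians lie at -4.12 and -3.41 in MEP and at -2.43 and -2.67 in CMP, while the H2B and H4 medians lie between 0.17 and 0.87 in these populations.

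The 35 calls were made up of 21 in MEP, 13 in CMP and 1 in GMP. Each was also tested alone by a two-sided exact permutation test on mean log2 levels, in which 4 against 4 libraries cannot give less than p = 0.0286. All but 1 reached that smallest value, which follows from their choice as called members on the same values and is no further support, and Hist1h2ah in CMP had p = 0.0571 by the exact permutation test because its groups overlapped. The counts depended on single libraries. In MEP, 9, 11 and 8 members were called without WT replicate 4, WT replicate 5 or Tet2-/- replicate 4. In CMP, 3 and 5 were called without WT replicate 4 or 5, and 4, 4, 3 and 7 without Tet2-/- replicate 2, 3, 4 or 5. In GMP, 2, 2 and 3 were called without WT replicate 3, WT replicate 5 or Tet2-/- replicate 5. With WT replicates 2 and 3 alone as the WT group, a setting chosen after the values were seen, edgeR called 0 members lower in CMP and 0 in MEP, where it called 1.58% and 1.98% of all genes lower. In that setting 9 and 20 members had an unadjusted p of at most 0.05 with a 2-fold difference, and the class medians were -0.54 for H2A and -1.85 for H3 in CMP and -2.57 and -2.86 in MEP. Over all settings tried, the class medians stayed below 0 for H2A and H3 and above 0 for H4 in CMP and MEP, while the H2A median in GMP turned to 0.14 with WT replicates 2 and 3 alone, and the H2B median in MEP ranged from -0.16 to 0.45. A single fit over all 46 libraries called 1 member in CMP, against 13 in the fit of CMP alone.

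The arrangement of the genes allows a comparison between neighbours that share their upstream region. Within 1000 bp, 14 pairs of members start in opposite directions, 13 of them an H2A beside an H2B gene and 1 an H3 beside an H2B gene, with 176 to 660 bp between the starts. In MEP the H2A gene had the lower log2 fold change in all 12 pairs in which both genes were tested, with medians of -4.31 for H2A and 0.04 for H2B. Of these, 9 H2A genes and 0 H2B genes fell. In CMP the H2A gene was also lower in 12 of 12 pairs (medians -2.35 and 0.65, with 3 H2A and 0 H2B genes called), and in GMP in 11 of 12. In LT-HSC, ST-HSC and CLP it was lower in 7 of 10, 3 of 9 and 5 of 11 pairs. The pairs are not independent of each other, since many H2A members share most of their sequence, and these counts carry no test. Every H2A gene also has an annotated gene on the opposite strand over its exons, and no H2B gene of these pairs has. Among the H3 genes only Hist2h3b has such an overlap. The strand setting of the counter is not known, and the part of these overlaps in the counts was not tested.

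Hist1h2ag and Hist1h2bj, whose common upstream window is printed above, show the difference within a pair. Hist1h2bj (chr13:22043214-22043676, plus strand) was at 10.4, 4.26, 14.4 and 15.1 CPM in WT MEP and at 8.56, 10.8, 11.03 and 14.4 CPM in Tet2-/- MEP, a log2 fold change of 0.01, beside the -6.13 of Hist1h2ag. In CMP it was at 6.90, 4.82, 14.0 and 19.7 CPM against 9.59, 9.78, 16.8 and 19.5 CPM (0.28), beside -3.79. The same held for Hist1h2ae and Hist1h2bg, 176 bp apart, with log2 fold changes of -4.05 and 0.23 in MEP. The H3 gene Hist1h3f and its neighbour Hist1h2bh, 660 bp apart, were at -2.74 and 0.37 in MEP.

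**Figure D4:**
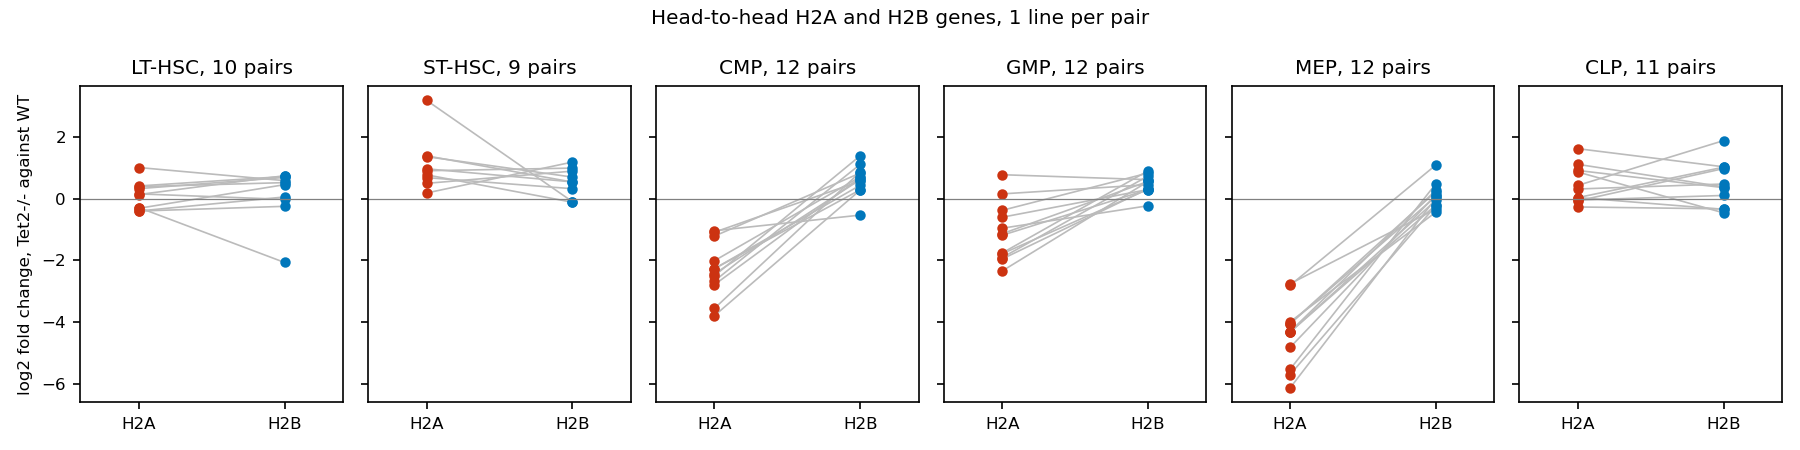
Log2 fold change of Tet2-/- against WT for head-to-head H2A and H2B genes, with 1 line per pair in which both genes were tested, by population. In MEP the lines rise from a median of -4.31 for the H2A genes to 0.04 for the H2B genes, and in LT-HSC, ST-HSC and CLP they run in both directions.

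The classes that fell also differ from the others in base composition, which was looked at after the fold changes had been seen. For each gene the 100-nt stretch of highest GC content in its longest transcript was found. It held 67% to 79% GC in H2A genes (median 78%) and 75% to 79% in H3 genes (median 77%), but 64% to 73% in H2B genes (median 72%), 68% to 72% in H4 genes (median 71%) and 62% to 76% in H1 genes (median 71.5%). These stretches are shown for 6 members described above, all within the coding sequence in mm10, with the longest uninterrupted run of G and C in capitals, or the first of them where several are equally long, as in Hist1h1c and Hist3h2a.
Hist1h2ag (79% GC, chr13:22042781-22042880, minus strand): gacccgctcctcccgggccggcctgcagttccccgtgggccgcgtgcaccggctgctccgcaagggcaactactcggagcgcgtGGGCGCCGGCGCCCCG
Hist1h3e (76% GC, chr13:23562232-23562331, minus strand): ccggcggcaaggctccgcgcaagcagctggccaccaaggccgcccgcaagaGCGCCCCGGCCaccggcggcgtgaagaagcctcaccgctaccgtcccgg
Hist1h1c (76% GC, chr13:23738867-23738966, plus strand): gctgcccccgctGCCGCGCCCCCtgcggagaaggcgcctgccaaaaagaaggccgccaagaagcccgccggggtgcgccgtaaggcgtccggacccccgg
Hist1h2bj (73% GC, chr13:22043487-22043586, plus strand): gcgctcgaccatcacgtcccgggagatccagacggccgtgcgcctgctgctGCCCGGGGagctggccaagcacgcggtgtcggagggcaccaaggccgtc
Hist1h4d (70% GC, chr13:23581652-23581751, plus strand): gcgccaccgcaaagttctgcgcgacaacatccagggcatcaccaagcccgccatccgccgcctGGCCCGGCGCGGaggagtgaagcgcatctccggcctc
Hist3h2a (69% GC, chr11:58954967-58955066, plus strand): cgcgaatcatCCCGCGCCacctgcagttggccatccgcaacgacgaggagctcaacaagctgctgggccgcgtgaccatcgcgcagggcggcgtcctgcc
The first 3 genes were called lower in MEP and CMP and the last 3 were not. Hist1h2ag holds a run of 16 bases of G and C, Hist1h4d 12, Hist1h3e and Hist1h1c 11 each, and Hist1h2bj and Hist3h2a 8 each.

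At a limit of 74%, also chosen after the values were seen, the members called lower lay on 1 side, and Hist1h4d, which rose in CMP, on the other. In MEP 21 of 29 tested members at or above the limit fell and 0 of 33 below it. In CMP 12 of 30 fell at or above it and 0 of 34 below it, and in GMP 1 of 31 and 0 of 32. Genes outside the clusters were split in the same direction: 9.647% of 5349 genes at or above the limit and 0.9678% of 9506 below it were called lower in MEP, 8.779% and 1.078% in CMP and 9.731% and 1.012% in GMP. Among all tested genes the share did not rise up to the highest GC content: in MEP it was 15.67% of 849 genes at 78% to 80%, 1.389% of 216 genes at 88% to 90% and 0 of 87 genes at 90% to 92%. Genes outside the clusters at or above the limit took 29.3% to 31.9% of the scaled counts in WT MEP and 23.7% to 27.0% in Tet2-/- MEP, 30.9% to 32.6% in WT CMP and 26.8% to 27.7% in Tet2-/- CMP, and 33.7% to 35.7% in WT GMP and 30.03% to 32.5% in Tet2-/- GMP, with no overlap in any of the 3, although only 1 member was called in GMP. The shares overlapped in LT-HSC (25.0% to 27.1% in WT and 22.7% to 26.5% in Tet2-/-), in ST-HSC (25.9% to 26.5% and 23.1% to 27.6%) and in CLP, where they lay the other way (18.3% to 25.9% and 21.7% to 29.5%). When the counts were corrected for this GC measure before the fit, edgeR called 21 members in MEP, 9 in CMP and 1 in GMP, and the class medians were -3.89 for H2A and -3.25 for H3 in MEP. Correcting instead for the GC share of the whole transcript gave the same 3 counts, with medians of -3.89 and -3.27 in MEP and of -1.75 and -2.23 in CMP. Both corrections remove, in each library, only the trend of the typical gene along GC content. In MEP the median log2 fold change of genes outside the clusters was -0.095 at or above the limit and 0.097 below it. Removing a trend of that size leaves larger falls of part of the genes in place. The counts after correction therefore could not test base composition. Recovery of GC-rich stretches and transcript level cannot be told apart in these counts, and the part of base composition in the result was not tested.

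**Figure D5:**
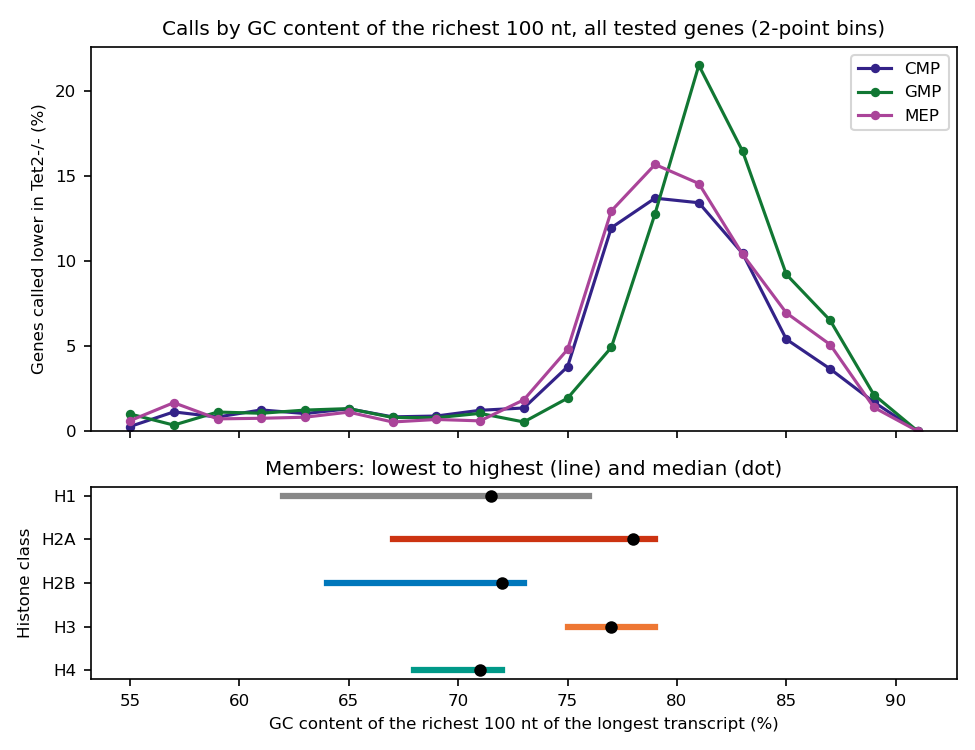
Top, share of all tested genes called lower in Tet2-/- CMP, GMP and MEP, in 2-point bins of the GC content of the richest 100 nt of the longest transcript. Bottom, the lowest, median and highest value of the same measure for the members of each class, where the H2A and H3 medians (78% and 77%) lie in the range of high shares and the H2B and H4 medians (72% and 71%) below it.

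CMP and CLP were compared with ST-HSC, and GMP and MEP with CMP. In WT cells, 28 of 63 tested members rose from ST-HSC to CMP and 0 fell, where 7.7% of all genes tested rose and 4.55% fell. These were 14 of 18 H2A genes, 10 of 11 H3 genes, 2 of 16 H2B genes, 2 of 5 H1 genes and 0 of 13 H4 genes. Of these classes, 18 H2A and 11 H3 genes passed the filter on low counts here but only 11 and 3 between the stem cell populations of WT, so some members entered only through CMP, where they are high, and the counts of H2A and H3 genes are given as a description. The 4 members of largest difference had no read in WT ST-HSC, so they are given against a floor of 3 reads over the group: Hist1h3a was at least 569-fold higher in CMP, Hist1h3g at least 225-fold, Hist1h3h at least 104-fold and Hist2h2ab at least 60.2-fold. In Tet2-/- cells, 6 of 58 tested members rose from ST-HSC to CMP and 0 fell, where 4.83% of all genes rose and 4.6% fell. The same limit of the filter holds here, since 16 H2A and 7 H3 genes were tested against 14 and 2 between the stem cell populations of Tet2-/- mice, and without the filter 2 members were called. Hist1h2ao rose by 3.30 (0.143 to 4.87 CPM in ST-HSC and 15.7 to 39.9 CPM in CMP) and Hist1h2ae by 2.82 (0.570 to 1.98 CPM and 5.51 to 15.1 CPM). Hist1h3g and Hist1h3i, with 1 and 2 reads in the 4 Tet2-/- ST-HSC libraries, were at 0.277 to 0.713 CPM and 0.182 to 0.807 CPM in CMP. Without WT CMP replicate 4 or 5 the count in WT was 18 in each case, and in Tet2-/- cells it was 2 to 3 without any 1 of the CMP libraries or without ST-HSC replicate 2. With a replicate block, which pairs samples by number, the count in WT was 14. Whether the rise differed between genotypes was tested only through the F test given below.

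From ST-HSC to CLP, 17 of 60 tested members rose in WT and 1 fell, where 6.6% of all genes rose and 8.28% fell. Here too some members passed the filter on low counts only through CLP, where they are high, in both genotypes, so these counts are given as a description. Hist1h2ag rose by 8.28 on the log2 scale (0.0341 to 0.261 CPM in ST-HSC and 8.43 to 110 CPM in CLP). Hist1h3a, Hist1h3g and Hist1h3h, without a read in WT ST-HSC, were at least 686-fold, 566-fold and 114-fold higher in CLP against the same floor. The member that fell was the H2B gene Hist3h2ba, at 0.852 to 10.2 CPM in ST-HSC and without a read in CLP, at least 283-fold lower. In Tet2-/- cells 11 of 62 rose and 0 fell, where 3.88% of all genes rose and 3.85% fell. Hist1h3d rose by 8.67 (0 to 0.0502 CPM in ST-HSC and 9.98 to 15.4 CPM in CLP) and Hist1h2af by 8.42, from 5 reads in ST-HSC to 1632 in CLP, of which most lay in the highest library (21.9 CPM against 0.378 CPM in the lowest). Hist1h3b and Hist2h3c2 had 1 read each in Tet2-/- ST-HSC and were at 0.430 to 6.07 CPM and 0.143 to 5.54 CPM in CLP. The count in WT was 1, 2 and 1 without ST-HSC replicate 2, 3 or 5. In Tet2-/- it was 1, 1, 0 and 0 without ST-HSC replicate 2, 3, 4 or 5, and 6 and 3 without CLP replicate 3 or 4. With the replicate block no member was called in either genotype. Fewer genes were detected in CLP than elsewhere, and the part of this in the counts was not tested.

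Among the myeloid progenitors few members were called in WT. From CMP to GMP in WT, 1 of 64 members rose and 2 fell, where 8.14% of all genes rose and 5.32% fell. Hist2h3c2 rose by 2.49, from 0.853 to 2.95 CPM in CMP to 8.35 to 19.3 CPM in GMP, and the H1 genes Hist1h1d (-1.32) and Hist1h1b (-1.07) fell. In Tet2-/- cells 17 of 64 rose and 4 fell, where 11.1% of all genes rose and 5.43% fell. The 17 were 9 H2A, 6 H3 and 2 H1 genes, among them Hist2h3c2 (3.24), Hist1h3g (2.76), Hist1h2aj (2.64) and Hist1h2af (3.60), of which the groups of the last 2 overlapped. The count was 12, 11 and 10 without CMP replicate 2, GMP replicate 4 or GMP replicate 5, and in WT it was 5 and 1 without CMP replicate 3 or GMP replicate 3. The 4 that fell in Tet2-/- were Hist1h4d (-1.36), Hist1h4f (-2.08), Hist1h1b (-1.40) and Hist3h2ba (-2.95). From CMP to MEP, 0 of 64 members were called in WT, where edgeR called 14.7% of all genes either way and 0 members had an unadjusted p of at most 0.05 with a 2-fold difference (18.4% of all genes). In Tet2-/- cells 0 rose and 4 of 58 fell, where 1.95% of all genes rose and 8.01% fell: Hist1h1c (-1.34, with overlapping groups), Hist1h1d (-1.60), Hist1h2ac (-2.58) and Hist1h2ae (-1.72). Without CMP replicate 2, 4 or 5 the count was 1, 2 and 0, and without MEP replicate 3 or 4 it was 0 and 1, while in WT 1 member was called without CMP replicate 2. From LT-HSC to ST-HSC no member was called in either genotype, where 0.209% of all genes in WT and 0.172% in Tet2-/- were called, and 0 and 1 members had an unadjusted p of at most 0.05 with a 2-fold difference (5.02% and 3.5% of all genes).

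Over all 46 libraries, an edgeR F test of the difference between the 6 populations called 46 of 66 tested members, against 65.3% of all genes: 18 H2A, 11 H3, 8 H2B, 5 H1 and 4 H4 genes. The share of members called was near that of all genes. An F test of whether the Tet2-/- difference itself varied between populations called 3 members, against 2.65% of all genes. Only 1 was called without WT replicate 4, WT replicate 5 or Tet2-/- replicate 4. These 3 were Hist1h3a (edgeR adjusted p = 0.00573), Hist2h3c2 (0.0243) and Hist1h2ag (0.0368). Hist1h3a had log2 fold changes of -3.32 in CMP and -3.44 in MEP beside 0.05 in GMP. Hist1h2ag had -3.79 in CMP, -2.34 in GMP and -6.13 in MEP, beside -0.31 in LT-HSC, 0.90 in ST-HSC and -0.27 in CLP. Its group means in the stem cells were at or below 0.259 CPM.

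Genes that make, process or deposit histones were counted from lists chosen by function. Of 33 genes of S phase and DNA replication, 0 were called in CMP (median log2 fold change 0.14), 3 fell in GMP (-0.01) and 2 fell in MEP (0.18), where 3.92%, 4.07% and 4.21% of all genes fell. The cyclin genes Ccne1 (-1.70) and Ccna2 (-1.23) were the 2 in MEP. Of 16 measured genes of histone mRNA synthesis and processing, 0 were called in CMP, 1 fell in GMP (Eri1, -2.27, a nuclease that trims the histone mRNA end) and 1 fell in MEP (Lsm1, -1.29). Slbp, which binds the stem-loop, was at 150.4 to 223 CPM in WT CMP and 149 to 242 CPM in Tet2-/- CMP and at 219 to 299 CPM and 244 to 309 CPM in MEP. Among 18 histone chaperones, Asf1a, which carries H3 and H4, fell in CMP (-2.44), GMP (-2.92) and MEP (-2.86), and Chaf1a fell in GMP (-1.11), and no other was called. Mki67, a marker of dividing cells, was at 136 to 177 CPM in WT CMP and 227 to 326 CPM in Tet2-/- CMP (log2 fold change 0.76, edgeR adjusted p = 0.0105, under 2-fold) and at 167 to 179 CPM and 199 to 254 CPM in MEP.

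Most variant histone genes outside the clusters make polyadenylated mRNA and are expressed outside S phase as well. Of 14 listed, 11 were tested in CMP, 10 in GMP and 9 in MEP, and 4, 3 and 4 of them fell, beside the same 3.92%, 4.07% and 4.21% of all genes. H2afx, the H2A variant phosphorylated at DNA breaks, was at 57.8 to 186 CPM in WT MEP and 7.48 to 19.7 CPM in Tet2-/- MEP (log2 fold change -3.34), and was at -2.78 in CMP and -1.51 in GMP. H2afj was at 28.6 to 114 CPM in WT MEP and 3.61 to 4.84 CPM in Tet2-/- MEP (-4.20), and at -2.96 in CMP. H2afv (-2.91 in MEP, -2.09 in CMP, -1.44 in GMP) and the linker histone gene H1f0 (-2.43, -2.66, -1.67) fell in all 3. The groups of H2afx and H2afj stayed apart in MEP. H2afz, which encodes H2A.Z, was at 1683 to 2492 CPM in WT MEP and 1927 to 2349 CPM in Tet2-/- MEP (0.06), and at 0.48 in CMP. The richest 100 nt held 78% GC in H2afx and H2afj, 82% in H2afv and 79% in H1f0, and 70% in H2afz. Among the variants tested and not called, this measure is given here for H2afz only, so no split of the variants by GC content can be read from these values.

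Between populations in WT, 16 of the 33 S-phase genes rose from ST-HSC to CMP, and 16 of 33 rose in Tet2-/- cells, where 7.7% and 4.83% of all genes rose. The median log2 fold changes of the list were 1.08 and 1.42. Rrm2, a ribonucleotide reductase subunit, rose by 2.27 in WT and by 2.26 in Tet2-/-. From ST-HSC to CLP in WT, 1 S-phase gene rose and 0 fell, where 6.6% of all genes rose and 8.28% fell.

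Cell-type markers also moved with the genotype. In CMP the MEP list summed to 952 to 1986 CPM in WT and to 3602 to 6840 CPM in Tet2-/-, with all 7 genes detected in both groups, and the CLP list to 182 to 299 CPM and 119 to 145 CPM, with 1 of its genes at 0 in Tet2-/-. In GMP the CLP list summed to 119 to 185 CPM in WT and to 93.6 to 109 CPM in Tet2-/-, and the list of stem cell genes (8 genes) to 235 to 299 CPM and 361 to 398 CPM, without overlap and with none of their genes at 0 in a whole group. In MEP the erythroid list (5 genes) summed to 157 to 430 CPM in WT and to 80.5 to 106 CPM in Tet2-/-, with none of its genes at 0 in a whole group. In MEP the neutrophil list (6 genes) stayed at or below 1.52 CPM in both genotypes, with 3 of its genes at 0 in each group. The part of cell makeup in the histone gene differences was not tested.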

How the data were processed

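RNA-seq of sorted bone marrow cells was measured in 46 libraries. Per the study's methods, the authors trimmed reads with Trim Galore and aligned them with Hisat2 to mm10. The submitters' notes name mm9 as well, and the counter and annotation are not given in the sources used here. The deposited values were raw counts per gene, and 9 columns of LT-HSC libraries in a second table were not used. No row without a gene name entered a total.

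The members and gene lists were chosen with earlier results of these data known. Library totals (50458473 to 102148079 counts) set the precision. Within each comparison, genes were filtered with filterByExpr, scaled by TMM and tested with edgeR 4.0.16 (quasi-likelihood, R 4.3.3), with Benjamini-Hochberg adjustment over all genes tested. A call needed an adjusted p of at most 0.05 and 2-fold. Standard errors were taken as the log2 fold change over the square root of F. Two-sided exact permutation tests used scipy 1.17.1 on log2(CPM + 0.5). The labels give no mouse or culture per library, so p-values measure the spread between these samples. In no pair of libraries did more than 0.15% of the genes with at least 100 reads in every library have equal counts. Named are the 4 members of highest mean per class, every member called between genotypes, and up to 4 called members of largest difference per direction and population comparison. The edgeR fit was tested on simulated data for the genotypes in CMP, and both F tests on a subset of genes. The F test between populations there called more unchanged genes than its threshold allows. The other comparisons and the alternative settings were not simulated. Alternatives were DESeq2 1.42.0, RLE scaling, no filter, no adjustment, no fold threshold, a fit of all 46 libraries, a replicate block, each library left out and, chosen after seeing the data, corrections for GC content, the richest 100 nt and length and WT replicates 2 and 3 alone. Promoters came from RefSeq (GRCm38.p6), transcripts from GENCODE vM21, in which all 69 members were found.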

Additional observations from a re-analysis of the deposited data

Results flagged for a closer look

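The summed H3 level of WT CLP replicate 2 was 85.2 CPM, far from the other 3 WT CLP libraries at 34.1 to 35.2 CPM. On the log2 scale its gap to the nearest of them was 0.963 of the whole range of the group, and a gap of this relative size is passed by chance in a small share of groups. In the same library the H2A sum was 1688 CPM, against 220 to 357 CPM in the other WT CLP libraries.

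The difference between Tet2-/- and WT varied between populations for 3 members by an edgeR F test over all 46 libraries, out of 66 tested, which is near the 2.65% of all genes called. Only 1 member was called without WT replicate 4, WT replicate 5 or Tet2-/- replicate 4. Hist1h3a had an adjusted p of 0.00573, with log2 fold changes of -3.32 in CMP and -3.44 in MEP beside 0.05 in GMP. Hist1h2ag had an adjusted p of 0.0368, with -3.79 in CMP, -2.34 in GMP and -6.13 in MEP, beside -0.31 in LT-HSC, 0.90 in ST-HSC and -0.27 in CLP. Hist2h3c2 had an adjusted p of 0.0243, with -4.27 in CMP and -3.55 in GMP, and 3 reads in all of Tet2-/- MEP.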

How the results depend on the processing

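Counts of called members changed with the processing while no named member or class sum turned direction among those called. DESeq2 called 1 member each in LT-HSC, ST-HSC and CLP, 22 in CMP and 6 in GMP between genotypes, 28 from ST-HSC to CLP in WT, 24, 22 and 12 in Tet2-/- from ST-HSC to CMP, ST-HSC to CLP and CMP to MEP, and 17 members in a likelihood ratio test of whether the Tet2-/- difference varied, against 3 with edgeR. Without adjustment of p the counts were 2, 1, 25 and 11 in LT-HSC, ST-HSC, CMP and GMP, 28 from ST-HSC to CLP in WT, and 1, 24, 26, 32 and 15 in Tet2-/- from LT-HSC to ST-HSC, ST-HSC to CMP, ST-HSC to CLP, CMP to GMP and CMP to MEP. Without the filter on low counts they were 8 in CMP, 7 from ST-HSC to CLP in WT, and 2 and 4 in Tet2-/- from ST-HSC to CMP and CLP. In a fit of all 46 libraries they were 1 in CMP, 0 in GMP and 1 in CLP, 29 from ST-HSC to CLP and 0 from CMP to GMP in WT, and 25, 0 and 1 in Tet2-/- from ST-HSC to CLP, CMP to GMP and CMP to MEP. Without a fold threshold they were 5 from CMP to GMP and 1 from CMP to MEP in WT. With WT replicates 2 and 3 as the WT group they were 0 in CMP, 4 in GMP and 0 in MEP. The counts in this section stand without the share of all genes called in the same setting. They show how far the counts moved, and not whether the members stood out from all genes. The cause was not tested.

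With a replicate block, which pairs samples by number, 5 members were called in CMP, 7 in GMP, 14 from ST-HSC to CMP and 0 from ST-HSC to CLP in WT, 8 from CMP to GMP in WT and 0 from ST-HSC to CLP in Tet2-/-. Over 59 pairs, samples with the same number deviated together by a correlation of at most 0.106 (1 pair over 0.1), and the labels do not say what a number marks, so the numbers were not taken as pairs. As a hint from the data, every sample correlated best with its own number in 7 of 16 comparisons. Summed over all members, replicates 4 and 5 lay above 2 and 3 in CMP, GMP and MEP of both genotypes. The same order held in Tet2-/- LT-HSC and ST-HSC, but not in CLP. WT LT-HSC and ST-HSC have no replicate 4, so the genotypes are unequal in this respect there, and replicate 5 was the highest in both. What sets this order was not tested. The block changed no other count by over 1.5 times.

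Leaving out 1 library at a time gave 3 to 18 calls in CMP, 1 to 3 in GMP, 8 to 22 in MEP and 0 in LT-HSC, ST-HSC and CLP. In WT it gave 18 to 32 from ST-HSC to CMP, 1 to 18 from ST-HSC to CLP, 1 to 5 from CMP to GMP and 0 to 1 from CMP to MEP, and in Tet2-/- 2 to 6, 0 to 16, 10 to 22 and 0 to 4. The F test between populations gave 39 to 47, and that of the varying difference 1 to 3. In LT-HSC and ST-HSC, where few H3 reads were counted, 4 and 2 of the 12 H3 genes could be tested between genotypes.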
